A study of Ovis aries with 2 samples.

Results

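Sheep blood held a small set of T-cell barcodes with at least 3 transcript counts of CTLA4 and DAPL1 together and none of CD4, most of them with CTLA4 alone and nearly all of them in 1 of the study's 2 libraries. A barcode was counted as a member when it carried at least 200 genes, at most 15% mitochondrial unique molecular identifiers (UMIs), at least 1 UMI of CD3, no CD4 UMI, at most 1 UMI over the B-cell genes MS4A1, CD79B and PAX5, and at least 3 UMIs of CTLA4 and DAPL1 together. CD3 was read from CD3D and CD3E, since the name CD3G was not found in the counts. This gave 154 members of 17884 barcodes, 149 in the A.G.-ES library and 5 in the untreated library. The members were thus chosen by measured UMIs of CTLA4, DAPL1, CD3D, CD3E, CD4 and the B-cell genes, whose levels are given only as a description.

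Mononuclear cells of peripheral blood, taken from a density gradient and not cultured, were profiled with droplet-based 3′ single-cell RNA sequencing. The untreated library came from sheep without treatment. The A.G.-ES library came from sheep with embedding at ST36, an acupuncture point, on both sides; the series title describes a suture that releases astragaloside IV and glycyrrhizic acid in weaned lambs. The labels do not say how many animals gave each library. The untreated library had 8246 barcodes and 55861418 UMIs with a median of 5200 UMIs per barcode, and the A.G.-ES library 9638 barcodes and 44485442 UMIs with a median of 4165. With 1 library per group, no difference between the treatments has a replicate check and none was tested. The libraries also differed in UMIs of 85 Y-linked genes, with 44632 for untreated and 850 for A.G.-ES, so treatment and differences between the animals cannot be told apart. The libraries shared 61 cell barcodes, and 0 of the A.G.-ES members were among them.

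CTLA4 is a receptor of T cells that binds CD80 and CD86 on antigen-presenting cells more tightly than the costimulatory receptor CD28 does, and so restrains T-cell activation. It is carried by regulatory T cells at all times and by other T cells after activation. DAPL1 encodes a small protein related to DAP, and proteins of this family bind resting ribosomes in eggs. Blood T cells without CD4 include CD8 T cells, γδ T cells, which are abundant in young ruminants, and T cells with neither coreceptor. In the RefSeq gene order of the assembly ARS-UI_Ramb_v3.0, CTLA4 lies on chromosome 2 between CD28 and ICOS, and DAPL1 lies on the same chromosome between TANC1 and PKP4.

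Members made up 3.27% of the 4563 CD3-positive CD4-zero barcodes of the A.G.-ES library (exact 95% interval 2.77% to 3.82%) and 0.160% of the 3130 such barcodes of the untreated library (0.0519% to 0.372%). All intervals are exact 95% intervals and cover counting error only. The pools behind these shares differed in make-up. Of their barcodes without CTLA4 and DAPL1, 2305 of 3091 untreated and 1215 of 4164 A.G.-ES ones carried SOX13 or RHEX, genes nearly absent from members. The part of this in the member shares was not tested. With every barcode thinned to 1500 UMIs, so that depth is equal, 47 of 4662 A.G.-ES barcodes (1.01%, interval 0.742% to 1.34%) and 2 of 2926 untreated barcodes (0.0684%, interval 0.00828% to 0.247%) met the rule. The rule was applied anew to the thinned counts, so these include barcodes whose CD4 UMIs were lost on thinning and need not all be members. Among CD4-positive T barcodes the same sum of CTLA4 and DAPL1 was reached by 70 of 1841 (3.80%) for A.G.-ES and 10 of 467 (2.14%) for untreated. In the CD4-zero barcodes the sum went up to 18 UMIs in the A.G.-ES library and to 3 in the untreated library.

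The label of the set names both genes, but most members carried only CTLA4. Of the 149 A.G.-ES members, 84 had CTLA4 alone, 60 had both genes and 5 had DAPL1 alone. The members' CTLA4 ran from 0 to 18 UMIs with a median of 4, and their DAPL1 from 0 to 7 with a median of 0. In B barcodes CTLA4 was found in 12 of 1454 (0.825%) and DAPL1 in 1, at a median of 5268 UMIs. The main comparison is with the 4164 CD3-positive CD4-zero barcodes of the A.G.-ES library without CTLA4 and DAPL1, called CTLA4/DAPL1-zero below. CD3E, which the rule used, was found in 147 of 149 members at 1377 counts per 1000000 UMIs (CPM) and stood at 1477 CPM in the CTLA4/DAPL1-zero barcodes. The 6 T-cell genes of the marker list that the rule did not use summed to 948 CPM in members, 906 CPM in CTLA4/DAPL1-zero barcodes and 31.2 CPM in B barcodes. Members had to carry a CD3 UMI and B barcodes had to have none, so these sums are a description and no check of the label. The genes in the sum also differed, with log2 ratios of members over CTLA4/DAPL1-zero barcodes from -0.95 for CD2 to 0.86 for LCK. Depth was close, with a median of 3712 UMIs in members and 3859.5 in CTLA4/DAPL1-zero barcodes.

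**Figure D1:**
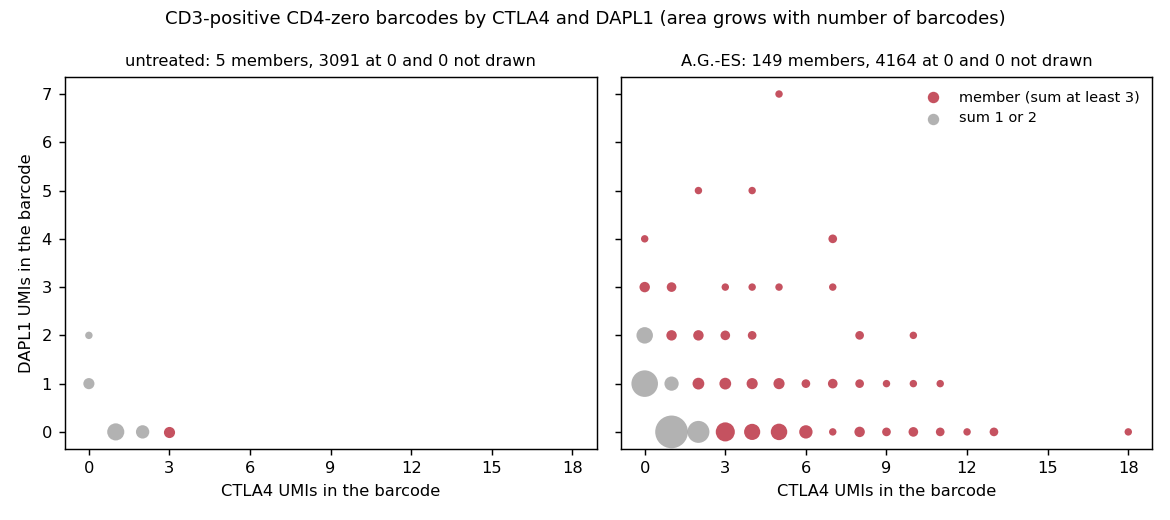
CTLA4 UMIs (horizontal axis) and DAPL1 UMIs (vertical axis) of CD3-positive CD4-zero barcodes in the untreated (left) and A.G.-ES (right) library, with point area growing with the number of barcodes and members in red. The 5 untreated members all sit at 3 CTLA4 and 0 DAPL1 UMIs, while the 149 A.G.-ES members reach 18 CTLA4 and 7 DAPL1 UMIs.

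Members held a large part of a few transcripts of the whole A.G.-ES library. They were 1.58% of its 9452 barcodes that passed the gene and mitochondrial limits. Of genes the rule did not use, members held 54 of the library's 91 UMIs of TNFSF11 (59.3%, interval 48.5% to 69.5%) and 61 of its 102 UMIs of CTDSPL (59.8%, interval 49.6% to 69.4%). The shares were 38.0% for ARPP21 and 30.2% for LOC121816219, a gene without a symbol that lies between CXADR and USP25 on chromosome 1 in the RefSeq order. By contrast, members held 9.65% of the UMIs of EOMES, 5.55% of ICOS and 4.24% of CD28. TNFSF11 encodes RANKL, the cytokine that drives osteoclast formation and lymph node development, CTDSPL is a protein phosphatase, and ARPP21 is an RNA-binding phosphoprotein. LOC121816219 was singled out after its values were seen. It was also read outside T cells: T barcodes held 670 of its 1177 UMIs in the A.G.-ES library and 79 of its 743 in the untreated library. Of the 208 ARPP21 UMIs of the A.G.-ES library, 37 lay in CD4-positive T barcodes. In the untreated library ARPP21 had 92 UMIs, 79 of them in T barcodes.

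The members were not 1 uniform set. When the CD4-zero T barcodes of the A.G.-ES library were clustered without the genes of the rule, 94 of the 149 members fell in 1 of 19 clusters, called cluster 13. It had 143 barcodes, of which 125 carried CTLA4 (87.4%), 60 carried DAPL1 (42.0%) and 17 carried neither. The other 55 members were spread, with 31 in cluster 4, led by IL2RA, SNX9 and GHR, 10 in cluster 10, led by TSHZ2 and LEF1, 6 in cluster 9, led by GZMK, EOMES and RUNX3, and the last 8 over 6 further clusters. Clusters keep their numbers here, and genes that differ between them served to form them, so those levels are a description.

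Neighbour counts describe the same split. They come from the principal components that the clustering used and are no independent check of it. Of the 15 nearest neighbours of a member, 50.6% were members, against 3.27% members among all barcodes searched and 1.62% among the neighbours of other barcodes. The share was 73.8% for members in cluster 13 and 11.03% for members elsewhere, and 16 members had no member among their neighbours. DAPL1 was found in 52 of 94 members in cluster 13 (55.3%, interval 44.7% to 65.6%) and in 13 of 55 elsewhere (23.6%, interval 13.2% to 37.0%). The median CTLA4 count was 4.5 UMIs in cluster 13 and 3 elsewhere, and median depth was 3470 and 4147 UMIs. The rule chose members by CTLA4 and DAPL1, so these values are a description and no check of the split.

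The threshold of the rule cut through this cluster. Of the 67 barcodes just outside it, with a sum of 2, 21 were in cluster 13 (31.3%), and of the 40 just inside, with a sum of 3, 13 were (32.5%). The share was 6.01% of 183 barcodes at a sum of 1 and 74.3% of 109 barcodes at 4 or more. CD8A or CD8B was found in 25 of the 67 barcodes at 2, in 7 of the 40 at 3 and in 3 of the 109 at 4 or more.

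Droplet counts miss low transcripts, so a barcode with 0 CD4 UMIs can come from a CD4 T cell. To see where the members lay, the 6404 CD3-positive T barcodes of the A.G.-ES library were also clustered together with the CD4-positive ones, into 21 clusters. In 9 clusters CD4 was found in 47.0% to 67.1% of barcodes, at median depths of 3577 to 11348 UMIs, and these held 42 of the 149 members. One of them, cluster 9 of this second clustering, had 23 members, FOXP3 at 50.9 CPM, CTLA4 at 314 CPM and CD4 in 47.4% of its barcodes. The cluster with most members, cluster 14, had 156 barcodes at a median of 3500 UMIs, among them 97 members and 138 of the 143 barcodes of cluster 13. CD4 was found in 4 of its 156 barcodes (2.56%, interval 0.703% to 6.43%), against 1.03% of B barcodes, at a median of 5268 UMIs. CTLA4 stood at 888 CPM in it.

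**Figure D2:**
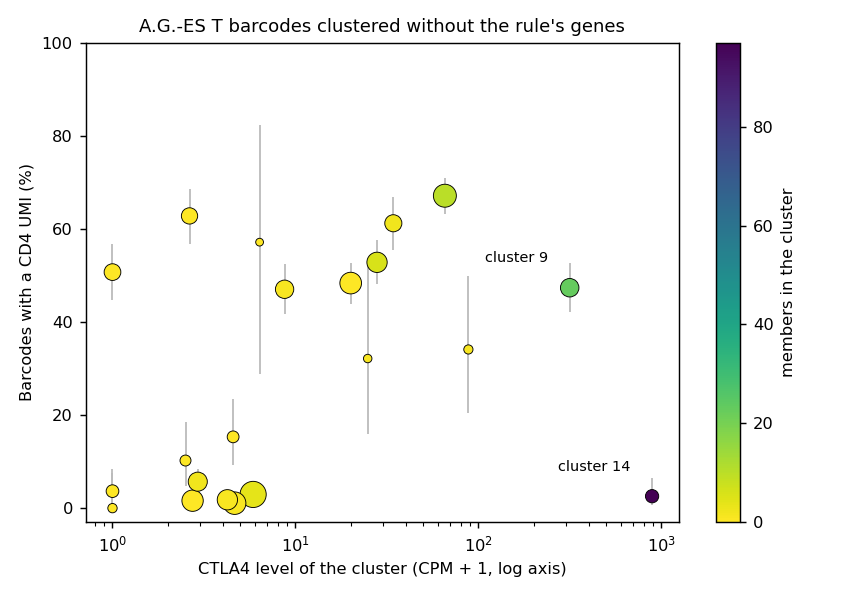
Each point is 1 of 21 clusters of A.G.-ES T barcodes, placed by its CTLA4 level (CPM plus 1, log axis) and the percentage of its barcodes with a CD4 UMI (bars, exact 95% intervals), with point area for the number of barcodes and colour for the number of members. Cluster 14, with 97 members, stands at 888 CPM of CTLA4 with CD4 in 2.56% of barcodes, and cluster 9, with 23 members, at 314 CPM with CD4 in 47.4%.

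Across genes, members differed from CTLA4/DAPL1-zero barcodes in few. Of 4514 genes compared, those with a mean of at least 25 CPM over both groups, 94 were at least 2-fold higher in members (2.08%) and 254 at least 2-fold lower (5.63%), and the median log2 ratio was -0.07. These are ratios of summed UMIs within 1 library, with no test, since cells are not replicates. The highest ratios were those of CTDSPL, with 61 UMIs in 34 of 149 members and 5 UMIs in 2 of 4164 CTLA4/DAPL1-zero barcodes, TNFSF11, with 54 UMIs in 29 members against 18 in 12 barcodes, and ARPP21, with 79 UMIs in 44 members against 30 in 17 barcodes. Their levels were 97.6, 86.4 and 126 CPM in members and 0.289, 1.04 and 1.73 CPM in the comparison. The ratio for CTDSPL was 338 (interval 137 to 1077), that for TNFSF11 83.0 (47.9 to 150) and that for ARPP21 72.9 (47.3 to 115). LOC121816219 had 355 UMIs in 80 members (568 CPM) and 146 UMIs in 98 comparison barcodes (8.44 CPM).

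The other genes with the highest ratios included homing receptors, transcription factors and membrane proteins. CCR7, which guides T cells into lymph nodes, had 89.6 CPM in members against 8.21 CPM, a ratio of 10.9 (interval 7.86 to 14.97). CCR9, a receptor for homing to gut and thymus, had 57.6 against 12.03 CPM. Between these in rank lay IGSF1, an immunoglobulin-family membrane protein, at 8.88-fold, CYTH3, an exchange factor for ARF GTPases, at 8.36-fold, C14H16orf87 at 6.64-fold, the peptide-amidating enzyme PAM at 6.30-fold, and the endocytic protein SNX9 at 5.97-fold. POU2F2, the transcription factor Oct-2, was 5.45-fold higher, ABTB2 5.40-fold and ZNF395 4.80-fold. EOMES, a T-box transcription factor of cytotoxic and memory T cells, was 4.36-fold higher, followed by EPB41L2, ICOS, FSTL4, the costimulatory receptor SLAMF1 and the actin crosslinker ACTN1, at 4.04- to 4.21-fold, and the polarity protein PARD3 at 3.77-fold. High EOMES was not particular to members. It was at 130, 96.1 and 74.8 CPM in CD4-zero clusters 9, 11 and 5, with 6, 2 and 0 members, against 114 CPM in cluster 13. ABTB2 was also a leading gene of cluster 9, and CCR9 of cluster 19, with 0 members.

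The lowest ratios included genes of monocytes and genes of SOX13-positive T cells, which only parts of the comparison carried. Of its 4164 barcodes, 1215 had SOX13 or RHEX. VCAN, CXCL8 and PLEK were leading genes of 1 CD4-zero cluster with 98 barcodes and 0 members. Low SOX13 was not particular to members: it was at 1.61 and 1.53 CPM in CD4-zero clusters 5 and 6, with 0 and 1 members, against 321 CPM in cluster 1. SOX13, a transcription factor of γδ T cells, had 1 UMI in the 149 members and 1207 in the comparison, a ratio of 0.0229 (interval 0.00058 to 0.128). RHEX had 5 UMIs, all in 1 member, against 3636, 26.3-fold lower. VCAN, a proteoglycan gene of monocytes, had 1 against 1577 UMIs, the chemokine gene CXCL8 5 against 2523, and PLEK, of platelets and myeloid cells, 3 against 1265. The activin receptor gene ACVR2A and SNTB1 were at 1 UMI each in members, against 1213 and 949, and CA8 at 3 against 3329. CDK14 and KCTD12 had 6 UMIs each and were 23.7- and 22.5-fold lower.

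**Figure D3:**
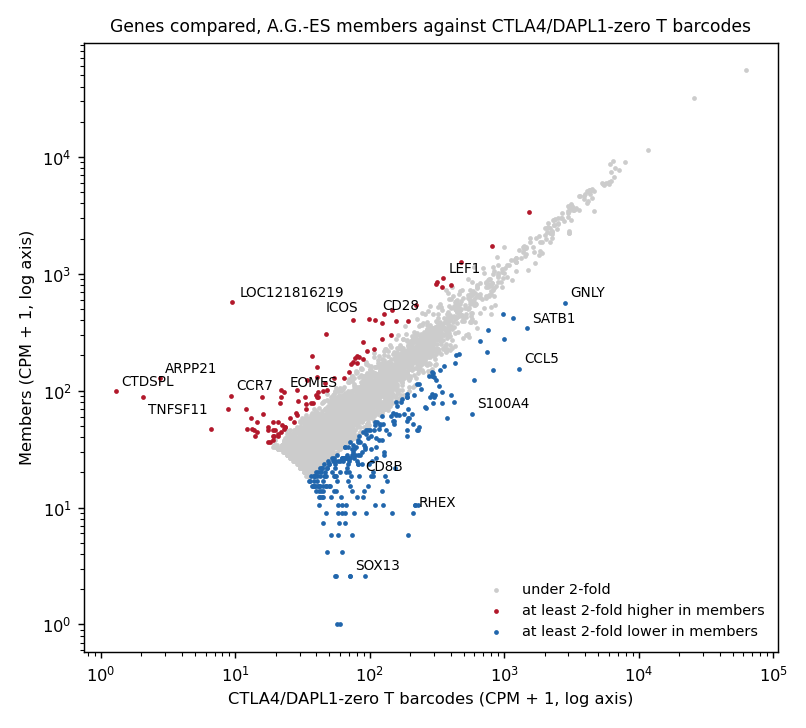
Level of each of 4514 genes in CTLA4/DAPL1-zero T barcodes (horizontal axis) and in members (vertical axis) of the A.G.-ES library, both as CPM plus 1 on log axes, with genes at least 2-fold higher in red and lower in blue. CTDSPL, TNFSF11, ARPP21 and LOC121816219 lie farthest above the bulk of genes, and SOX13 and RHEX lie well below it.

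Within the CTLA4 list, the receptors CD28, which shares the ligands of CTLA4, and ICOS, a relative with its own ligand, were higher in members. Of the 4 genes of this list, 3 were at least 2-fold higher and 1 lower, where the shares over all genes compared were 2.08% and 5.63%. ICOS, a costimulatory receptor, had 410 CPM in members and 97.8 CPM in CTLA4/DAPL1-zero barcodes (ratio 4.19, interval 3.66 to 4.78), and CD28 had 399 against 109 CPM. Of the ligands, CD80 was higher, at 49.6 against 21.1 CPM, and CD86 lower, with 9 UMIs in members and a log2 ratio of -1.46, which was -0.81 with at least 2 CD3 UMIs and -0.04 after thinning. Of the 9 compared genes for the trafficking and signalling of CTLA4, 0 were at least 2-fold higher and 1 lower, PIK3R1, the regulatory subunit of PI3 kinase (-1.85). LRBA, which protects CTLA4 from degradation, had a log2 ratio of 0.24. The 6 compared genes of DAPL1's relatives and of ribosome dormancy lay between -0.37 and 0.23, with none past 2-fold.

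Against CD4-positive T barcodes, 85 of 4548 genes were at least 2-fold higher in members (1.87%) and 304 lower (6.68%), with a median log2 ratio of -0.16. Without ribosomal protein and mitochondrial genes in the totals, the split was 152 higher and 318 lower. Of the CTLA4 pathway, 0 of 3 compared genes were past 2-fold in either direction: ICOS stood at 410 against 214 CPM and CD28 at 399 against 314 CPM. TNFSF11 had 0 UMIs in the 1841 CD4-positive barcodes, so it was at least 268-fold higher in members when a floor of 3 UMIs summed over the CD4-positive group was used. CTDSPL was 227-fold higher (interval 84.2 to 859), EOMES 34.3-fold (21.3 to 56.7) and ARPP21 31.7-fold (21.2 to 48.3). PHACTR1, CYTH3, ABTB2, NAT10 and SPRY2 were 6.16- to 8.75-fold higher. The receptor phosphatase gene PTPRK had 1 UMI in members against 487 (ratio 0.0305, interval 0.000771 to 0.171), CDK14 and KCTD12 were again low, ZBTB16, the transcription factor PLZF of innate-like T cells, had 3 against 588 UMIs (ratio 0.0759, interval 0.0156 to 0.223), and UST was 10.8-fold lower.

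CD79A, a B-cell receptor chain gene, was among the highest against CD4-positive barcodes, at 157 against 17.0 CPM. It stood at 144 CPM in CTLA4/DAPL1-zero barcodes as well. The 4 B-cell markers that the rule did not use summed to 168 CPM in members, 193 CPM in CTLA4/DAPL1-zero, 61.4 CPM in CD4-positive and 3476 CPM in B barcodes, with 3 of 4 found in members. Within the members the sum was 220 CPM (81 UMIs) in cluster 13 and 93.8 CPM (24 UMIs) elsewhere. The log2 ratio of CD79A, cluster 13 over elsewhere, was 1.26. The part of B-cell RNA in the CD79A value was not tested. The monocyte and dendritic list summed to 107 CPM in members, with 6 of 13 genes found and CSF1R, CD14, CD68 and S100A9 among those at 0, against 241 CPM in CTLA4/DAPL1-zero and 4428 CPM in monocyte barcodes. Platelet markers summed to 12.8 CPM and erythroid markers to 1.60 CPM in members.

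Other T-cell programmes showed members lower in effector genes than CTLA4/DAPL1-zero barcodes, but not than CD4-positive barcodes, and mixed in genes of resting T cells. Over all genes compared, 2.08% were at least 2-fold higher in members than in CTLA4/DAPL1-zero barcodes and 5.63% lower. Against CD4-positive barcodes the shares were 1.87% and 6.68%. Of 10 cytotoxic effector genes compared with CTLA4/DAPL1-zero barcodes, 0 were at least 2-fold higher and 6 lower, with a median log2 ratio of -1.64. CCL5, a chemokine of effector T cells, stood at -3.06, the granule protein genes GNLY and NKG7 at -2.32 and -2.03, CTSW at -2.16 and perforin, PRF1, at -1.33. Against CD4-positive barcodes the cytotoxic list had 3 of 9 genes higher, with GZMM at 2.27, PRF1 at 1.91 and GNLY at 1.35, and 0 lower. Of 14 genes of naive and central memory T cells, 5 were higher and 2 lower than in CTLA4/DAPL1-zero barcodes, with a median of 0.14. CCR7 stood at 3.45, LEF1, a transcription factor of naive T cells, at 1.40, and the chromatin organiser SATB1 at -2.10.

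Of 5 genes of the CD4 and CD8 lineages compared, EOMES was higher, CD8A and CD8B were lower at log2 ratios of -1.26 and -2.23 (-0.66 and -0.62 when a sum of at least 2 was enough), and RUNX3 and GATA3 lay at -0.25 and -0.68. CD8A was found in 8 and CD8B in 9 of 149 members, against 704 and 764 of 4164 CTLA4/DAPL1-zero barcodes. Of 6 genes of the γδ-like list compared, 0 were higher and 5 lower, with a median of -3.56: SOX13, RHEX, ZBTB16, BLK and SOX4 lay between -5.45 and -3.17, and MAF at 0.27. Of 6 regulatory T-cell genes compared, 0 were past 2-fold, with IL2RA at 0.75, IKZF2 at 0.67, TNFRSF1B at 0.29, PRDM1 at 0.16, TGFB1 at -0.12 and IL2RB at -0.40. Below the limit of 25 CPM lay FOXP3, with 11 UMIs in 7 of 149 members and 44 in 39 CTLA4/DAPL1-zero barcodes, a log2 ratio of 2.79 (interval 1.69 to 3.77) that was 0.50 after thinning. Also below it lay IL10, a suppressive cytokine, with 8 UMIs in 5 members, all outside cluster 13, and 12 in 10 CTLA4/DAPL1-zero barcodes, a log2 ratio of 4.21 (interval 2.71 to 5.62), and TNFRSF18 with 11 UMIs in 9 members. Of 14 antigen receptor signalling genes, 0 were past 2-fold, with a range of -0.35 to 0.87. Over all genes compared, 2.08% were higher and 5.63% lower. A count of 0 in a list this short is near those shares, also for the 6 regulatory T-cell genes. Of 12 homing genes, 3 were higher (CCR7, CCR9 and the integrin gene ITGAE at 1.04) and 3 lower (ITGAL at -1.79, SELPLG at -1.73 and ITGB7 at -1.05). CRTAM, a receptor of activated CD8 T cells, had 19 UMIs in 12 members, TBX21 5 in 5 and CD40LG, the CD40 ligand of helper T cells, 8 in 5. Among 8 TGF-beta genes only SMAD3 was past 2-fold, at 1.32. Of 10 genes of activation and immediate early response, 0 were higher and 1 lower, NFKBIA at -1.70. The thymocyte markers RAG1, RAG2, DNTT and PTCRA had 0 UMIs in members.

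The costimulatory genes of members lay partly above the comparison. Over all genes compared, 2.08% were at least 2-fold higher and 5.63% lower, so 0 or 1 gene past 2-fold in a short list is near those shares. Of 9 costimulation and adhesion genes, 3 were at least 2-fold higher in members than in CTLA4/DAPL1-zero barcodes and 0 lower: SLAMF1, TNFSF8, the ligand of CD30, at a log2 ratio of 1.90 with 48 UMIs in 37 members, and SLAMF6 at 1.32. Of 15 lineage transcription factors, 4 were higher and 3 lower, with IKZF3 at 1.56 (259 against 87.7 CPM) and HOPX at -2.70 (57.6 against 376 CPM). EOMES was the only one of 6 exhaustion-linked transcription factors past 2-fold, and TOX stood at 0.74. Of the inhibitory receptors, CD244 was lower with 5 UMIs in 3 members, and PDCD1, TIGIT and LAG3 were too low to compare, with 9, 6 and 1 UMIs in members. The list of cytokine receptors had 0 of 10 higher and 2 lower, IL4R at -2.27 and IL12RB2 at -1.24. Helper T-cell genes had 0 of 4 higher and 3 lower, among them RORA at -1.49 and BCL6 at -1.59. Of 3 NK-cell genes, KLRK1 and FCER1G were lower. In the interferon list HERC6 was higher at 1.19 and RSAD2 lower at -2.45 of 6 compared. Of 4 proliferation genes, CENPF was higher at 1.11, with its 25 UMIs in 9 members, while MKI67 had 8 UMIs in 4.

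**Figure D4:**
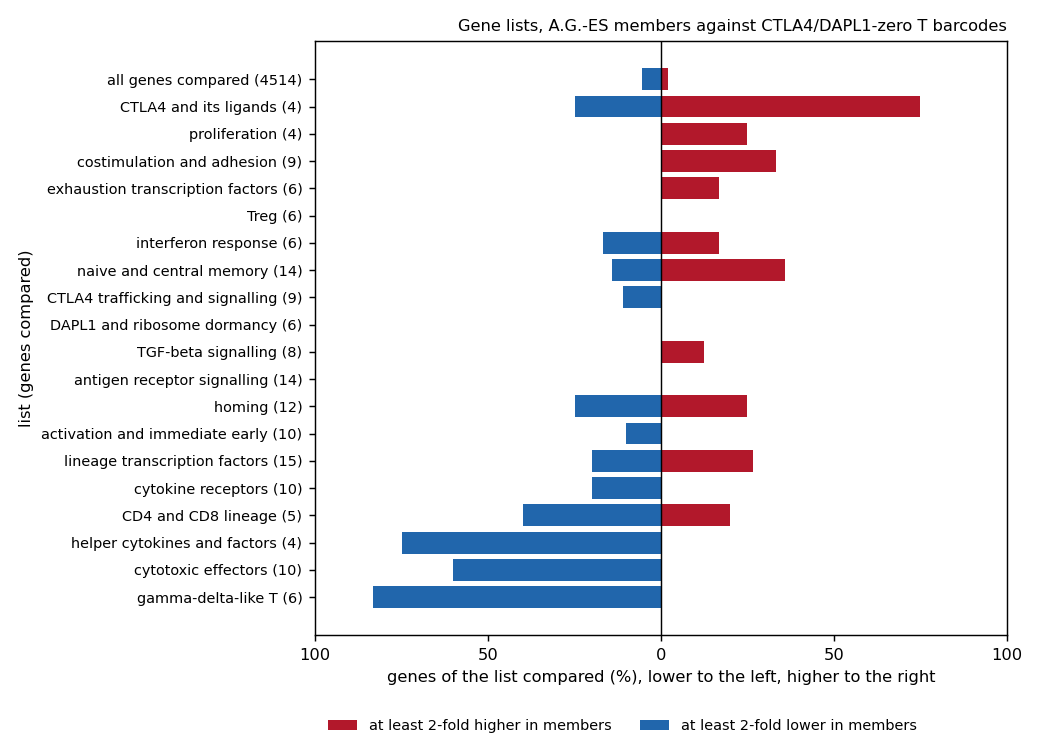
Percentage of the compared genes of each list (number in brackets) that were at least 2-fold higher (red, right) or lower (blue, left) in A.G.-ES members than in CTLA4/DAPL1-zero T barcodes, for lists with at least 4 compared genes and for all genes. Over all 4514 genes 2.08% were higher and 5.63% lower. In the γδ-like list 5 of 6 and in the cytotoxic list 6 of 10 were lower.

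Members in cluster 13 and the mixed members elsewhere carried different genes. Of 4379 genes compared, 206 were at least 2-fold higher in the 94 members of cluster 13 than in the 55 elsewhere (4.7%) and 593 lower (13.5%). Genes that differ between clusters served to form them, so these values are a description. TNFSF11 had 53 UMIs in 28 members of cluster 13 and 1 UMI elsewhere, CTDSPL 60 UMIs in 33 members and 1 UMI, and ARPP21 77 UMIs in 42 members and 2 UMIs. LOC121816219 was found in 71 of the 94 and in 9 of the 55. After thinning to 1500 UMIs it was found in 55.9% of the former, 7.55% of the latter and 1.02% of CTLA4/DAPL1-zero barcodes. EOMES stood at 130 against 46.9 CPM, CCR9 at 86.8 against 15.6 CPM, and the transcription factor gene MYB at 46.1 against 3.91 CPM. ICOS and CD28 were high in both, at 358 and 412 CPM in cluster 13 and 485 and 379 CPM elsewhere.

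Several genes of regulatory and cytotoxic T cells were higher in the members outside cluster 13, and others were not. Those members were spread over clusters, so their summed levels mix unlike barcodes. Cluster 4, with 31 of them, had IL2RA at 216 CPM and GNLY at 67.4 CPM over all its barcodes. Cluster 11, with 2 of them, had IL2RA at 1.46 CPM and GNLY at 7954 CPM. Of 6 regulatory T-cell genes compared, 4 were at least 2-fold lower in cluster 13 than elsewhere and 0 higher, with TGFB1 and TNFRSF1B at log2 ratios (cluster 13 over elsewhere) of 0.19 and 0.17. Of 9 cytotoxic genes, 5 were lower in cluster 13 and 0 higher, with GZMM at 0.40 and FASLG at 0.18, against 13.5% of all genes lower. Of the CD8 lineage, EOMES was higher in cluster 13, at 1.47, and CRTAM stood at 0.96, and the 5 CD8 markers summed to 507 CPM in cluster 13 and 598 CPM elsewhere. That sum holds RUNX3, EOMES and CRTAM beside the coreceptor genes. Against CTLA4/DAPL1-zero barcodes, members in cluster 13 had log2 ratios of -4.93 for CD8B and, with a floor of 3 UMIs, -2.92 for CD8A. IL2RA, the high-affinity chain of the IL-2 receptor, had 41 UMIs in 16 members elsewhere and 0 in cluster 13. FOXP3, the transcription factor of regulatory T cells, had 10 UMIs in 6 members elsewhere and 1 in cluster 13, and IKZF2 stood at 231 against 67.8 CPM. The transcription factor genes MAF and PRDM1 had 574 and 188 CPM elsewhere and 21.7 and 5.42 CPM in cluster 13. The growth hormone receptor gene GHR had 78 UMIs elsewhere and 0 in cluster 13. CD8A had 16 UMIs in 8 members elsewhere and 0 in cluster 13, and CCL5 and GNLY had 363 and 1274 CPM elsewhere against 8.13 and 75.9 CPM. CD2, an adhesion receptor of most T cells, had 24 UMIs in 19 members elsewhere and 1 UMI in cluster 13, where CD3E was found in 92 of 94 members and CD5, another T-cell surface receptor, in 48.

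For comparison, CD4-positive barcodes with FOXP3, 57 in all, had IL2RA at 278 CPM, IKZF2 at 278 CPM and TNFRSF18 at 136 CPM, while TNFSF11, CTDSPL and ARPP21 had 0 UMIs in them. CTLA4/DAPL1-zero barcodes with CD8A or CD8B had EOMES at 49.1 CPM but TNFSF11 and CTDSPL at 0 UMIs. Those with SOX13 or RHEX had TNFSF11 at 1.98 CPM, ARPP21 at 0.721 CPM, CTDSPL at 0 UMIs and CD2 at 12.1 CPM. The members in cluster 13 stood at 144 CPM for TNFSF11, 163 for CTDSPL and 209 for ARPP21, above each of these groups. TNFSF11, CTDSPL and ARPP21 served to form cluster 13, so this is a description.

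**Figure D5:**
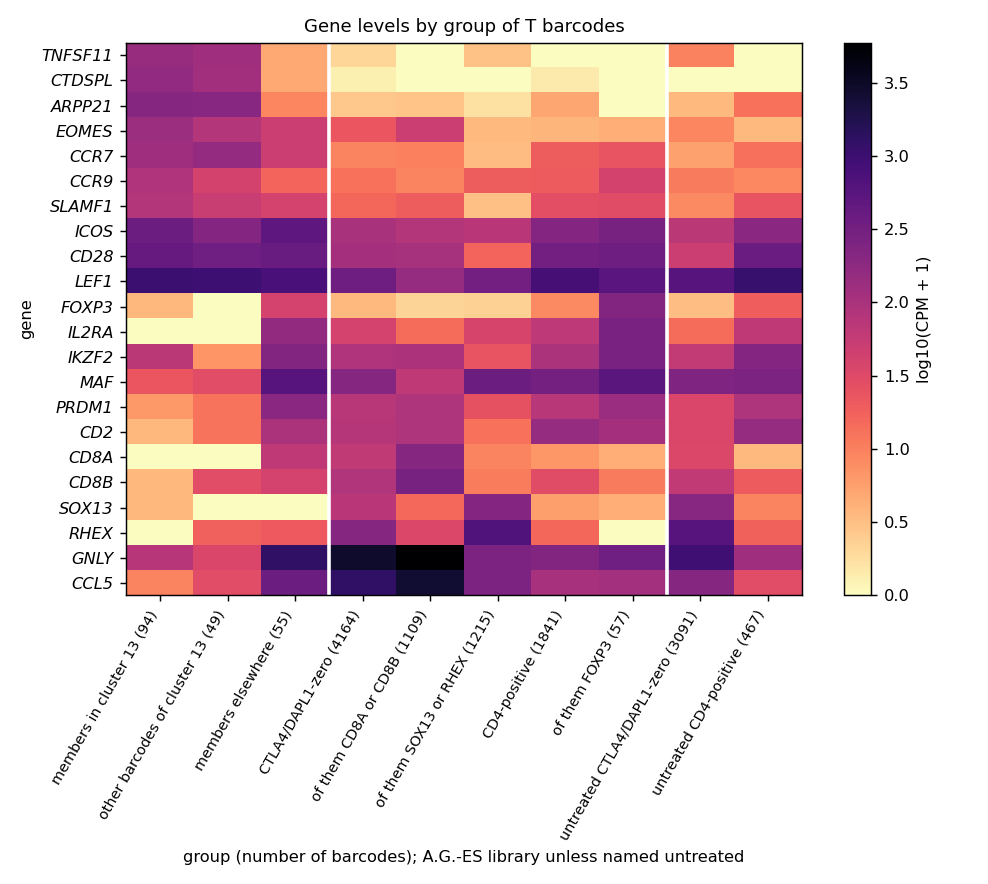
Levels of 22 genes, as log10 of CPM plus 1, in groups of T barcodes of the A.G.-ES library and in the untreated library, with the number of barcodes in brackets. The top 3 genes are dark in both columns of cluster 13 and paler in the other columns, while IL2RA, MAF, PRDM1, CD2 and CD8A are darker in the members elsewhere.

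Compared with CTLA4/DAPL1-zero barcodes, members in cluster 13 had 161 of 4422 genes at least 2-fold higher (3.64%) and 512 lower (11.6%). CTDSPL was 563-fold higher (interval 228 to 1796) and TNFSF11 138-fold (79.6 to 250). Genes that differ between clusters, CTDSPL and TNFSF11 among them, served to form cluster 13. The ratios given here are thus a description, and their intervals do not cover that choice. BCAT1, an enzyme of branched-chain amino acid breakdown, was 29.6-fold higher (17.0 to 50.7). On the low side, GNLY was 37.2-fold and S100A4 35.2-fold lower. CCL5 had a ratio of 0.00637 (interval 0.00131 to 0.0186), CD2 of 0.0350 (0.000887 to 0.196) and PRDM1 of 0.0759 (0.00918 to 0.275), and GHR, with 0 UMIs, was at least 17.0-fold lower against a floor of 3 UMIs summed over the members. All 6 compared genes of the γδ-like list were lower, as were 6 of 10 cytotoxic genes. Of 5 regulatory T-cell genes compared 0 were higher and 2 lower, PRDM1 and IL2RB.

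The other 49 barcodes of cluster 13 fell short of 3 CTLA4 and DAPL1 UMIs. The genes given here for them helped to form the cluster, so their levels are a description. TNFSF11 stood at 121 CPM in them, CTDSPL at 115, ARPP21 at 201, LOC121816219 at 677, CCR7 at 155 and EOMES at 80.3 CPM, and IL2RA, FOXP3 and CD8A had 0 UMIs. SOX4 differed, with 18 UMIs in 5 of these barcodes and 1 UMI in the 94 members. The whole cluster held 81.3% of the A.G.-ES library's TNFSF11 UMIs and 78.4% of its CTDSPL UMIs, with 1.51% of the barcodes.

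Barcodes were also counted by how many of TNFSF11, CTDSPL, ARPP21 and LOC121816219 they carried. This group of 4 was put together after its values were seen. ARPP21, CTDSPL and TNFSF11 were the leading genes of cluster 13 and served to form it. The counts by cluster are therefore a description, and whether the genes go together within the cluster was not tested. Of the 94 members in cluster 13, 10 had none of the 4 genes, 25 had 1, 33 had 2, 21 had 3 and 5 had all. Of the 55 members elsewhere, 45 had none, 7 had 1 and 3 had 2. Of the CTLA4/DAPL1-zero barcodes outside cluster 13, 4042 had none, 103 had 1, 2 had 2 and 0 had more. Over all T barcodes, 93 of 6404 in the A.G.-ES library carried at least 2 of the 4 genes (1.45%, interval 1.17% to 1.78%), of which 62 were members and 2 carried CD4. In the untreated library 6 of 3597 did (0.167%, interval 0.0612% to 0.363%), and 0 of these were members. CD8A or CD8B was found in 3 of these 6 and in 3 of the 93 A.G.-ES barcodes. After thinning, at least 2 of the 4 genes were found in 43 of 6123 A.G.-ES and 3 of 3399 untreated T barcodes. In B barcodes of the A.G.-ES library it was 0 of 1454 (exact interval up to 0.253%), and a limit of 3 counts would be 0.206%. In B barcodes of the untreated library it was 2 of 3259 (0.0614%, interval 0.00743% to 0.222%).

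The 5 untreated members, with 42886 UMIs in all from 1 library, are too few for a comparison, and their values are set beside those of the A.G.-ES members. Each had 3 CTLA4 UMIs and no DAPL1, and their median depth was 7491 UMIs. TNFSF11 and CTDSPL had 0 UMIs in them, as against 53 and 60 in A.G.-ES members of cluster 13 and 1 each in those elsewhere. MAF had 20 UMIs over all 5 barcodes (466 CPM), with 21.7 CPM in A.G.-ES members of cluster 13 and 574 CPM in those elsewhere. CD2 had 7 UMIs in 3 barcodes (163 CPM), with 2.71 CPM in cluster 13 and 93.8 CPM elsewhere. CD28 had 35 UMIs and IKZF2 67 over all 5. In the untreated library as a whole CTDSPL had 14 UMIs, 2 of them in T barcodes, and DAPL1 had 16. TNFSF11 was present there without CTLA4 and DAPL1: it had 133 UMIs in the untreated library, of which 117 lay in CTLA4/DAPL1-zero T barcodes and 111 in those with SOX13 or RHEX, at 11.6 CPM. The same SOX13 or RHEX group of the A.G.-ES library stood at 1.98 CPM. PRLH, which in the A.G.-ES library had 943 UMIs, gave 6 in members, of which 1 was in cluster 13.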

How the data were processed

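The authors deposited raw UMI counts per gene and barcode for each of the 2 libraries (SeekOne DD 3′ kit, per the labels' protocols). The sources used here do not give the aligner, counter, cell caller or genome build, and 0 columns of per-sample values were set aside. All 26761 gene names occur in a RefSeq table of ARS-UI_Ramb_v3.0, which was used for names and neighbours only, and 17 listed genes have no such name in the counts.

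Counts were summed over barcodes and divided by the sum's UMIs (CPM). CPM carry exact Poisson, shares Clopper-Pearson and ratios conditional binomial 95% intervals. Genes at a mean of at least 25 CPM over both groups were compared, and at least 2-fold counted as apart. B barcodes had no CD3 UMI and at least 2 B-gene UMIs. For clustering, the rule's genes were removed, counts scaled to 10000 per barcode, 2000 variable genes and 30 principal components taken, and Leiden run at resolution 1 on a weighted graph of 15 neighbours (scanpy 1.11.5, igraph 0.11.9, scikit-learn 1.9.0); the weighted graph was chosen after an unweighted one had been seen. Doublets stayed in; Scrublet's own threshold marked 228 untreated and 195 A.G.-ES barcodes (2.77% and 2.02%). The ratio code was checked on simulated data. TMM factors (edgeR 4.0.16) served as an alternative.

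Members and the 27 gene lists were chosen with earlier results of these data known. Named genes, among those with a symbol, were the 20 highest and 10 lowest ratios against CTLA4/DAPL1-zero barcodes, the 10 highest and 5 lowest against CD4-positive ones, and listed genes with the most UMIs or largest ratios; antigen receptor and MHC genes were left out. The genes picked to set cluster 13 beside the members elsewhere were chosen after their values were seen. Some genes of the marker lists are not reported here by name, and list sums and counts still hold them.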

Additional observations from a re-analysis of the deposited data

How the results depend on the processing

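No paired analysis was possible because each group is 1 library. The share of members among members' neighbours stayed at 42.8% to 52.2% under the alternatives run for it. The member share followed the threshold: at a sum of at least 2 it was 0.479% untreated and 4.73% A.G.-ES, at 5 it was 0 and 1.73%, and after thinning to 1500 UMIs it was 1.01% in the A.G.-ES library. The counts of genes past 2-fold depended on the settings, and are given here as higher and lower against CTLA4/DAPL1-zero barcodes, then against CD4-positive ones. They were 149 and 426, then 129 and 488 after thinning; 57 and 136, then 42 and 163 at a mean of at least 50 CPM; 223 and 559, then 230 and 628 at 10 CPM; and 1212 and 1291, then 1270 and 1361 with no filter on low values, where a single UMI in the smaller group can pass. With only members carrying both genes they were 156 and 637, then 149 and 758, and with only members in cluster 13, an alternative chosen after seeing the data, 161 and 512, then 147 and 603. A sum of at least 5 moved the higher counts to 143 and 129, and leaving out ribosomal protein and mitochondrial genes moved them to 143 and 152. The cause of these shifts was not tested.

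Of 64 single genes followed against CTLA4/DAPL1-zero barcodes under 15 alternatives, 46 were at least 2-fold apart, 40 of these stayed so under each alternative that gave a ratio and 0 turned direction. The 64 include 12 genes under the limit of 25 CPM, 6 of them among the 46. IL10 gave no ratio with both genes and in cluster 13, where it had 0 UMIs, nor did CCR8 with both genes. The exceptions were CD8A (-0.66) and CD8B (-0.62) at a sum of at least 2, CD86 with at least 2 CD3 UMIs (-0.81) and after thinning (-0.04), PTPRK after thinning (-0.83) and with both genes (-0.99), FOXP3 after thinning (0.50), with both genes (0.64) and in cluster 13 (0.09), and CRTAM under 4 alternatives (0.55 to 0.93). Cluster 13 had 140 barcodes with 94 members at resolutions 0.5 and 2, and 167 with 96 members on the unweighted graph. Of the members, 4 were among the barcodes with the highest doublet scores. With 149 members, a gene at 0 UMIs is known only to lie below about 3 UMIs in 624694.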
